A study of Mus musculus with 15 samples.

Results

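The transcripts of 36 imprinted genes were followed in foetal male germ cells, called gonocytes, of control and Tex15-/- mice. The genes were chosen by name as well-known members of imprinted domains, and each was matched to 1 gene identifier of the count tables, so that 36 of 54838 identifiers were described. They fall into 9 clusters and 7 single loci on the basis of textbook knowledge of the domains. Gonocytes were sorted from E16.5 testes by tdTomato fluorescence, and both genotypes carried the reporter as Miwi2tdTom/+ (Miwi2 is the nuclear PIWI protein of foetal germ cells). The control animals were Tex15+/- and the mutant animals Tex15-/-, with 3 RNA-seq libraries of rRNA-depleted total RNA for each genotype. Both genotypes had a mixed B6CBAF1/Crl and C57BL/6N background, and Tex15- is a CRISPR/Cas9 allele with an insertion in exon 5, carried in a line from 1 founder. Small RNA libraries, again 3 Tex15+/- and 3 Tex15-/-, came from whole E16.5 testes with 6 testes per library and no reporter named in their labels. The labels do not say whether the libraries of a genotype came from separate litters, so the p-values below measure the spread between libraries only.

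Imprinted genes are transcribed from only the maternal or only the paternal chromosome, because a control region was methylated in one parental germline and not in the other. Most such regions are methylated in the oocyte, whereas those of H19-Igf2, Dlk1-Meg3 and Rasgrf1 are methylated in the male germline before birth. Germ cells first erase the marks they inherited, and foetal gonocytes then set the paternal ones anew with the de novo DNA methylation machinery. MIWI2 directs part of this methylation to young transposons, guided by piRNAs, which are small RNAs somewhat longer than microRNAs, and TEX15 is a germ cell protein examined in the study for a role in that pathway. At Rasgrf1 an RMER4B repeat upstream of the gene is a known target of piRNAs. The comparison therefore asks what the transcripts of imprinted genes do when Tex15 is missing at the time these marks are set. Allelic origin was not measured, and the total of both alleles is what each value gives.

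Gene counts summed to 4893265 to 5697020 reads per library, and levels are given as counts scaled to 1000000 per library (CPM) after TMM scaling. Tex15 itself had 1509, 1667 and 1664 CPM in the controls and 469, 230.2 and 249 CPM in Tex15-/- libraries 1, 2 and 3 (log2 fold change -2.35 ± 0.23 SE, edgeR quasi-likelihood test, adjusted p = 0.0112). It was lower in each of the 6 fits that left out 1 library, but the adjusted p was 0.102 to 0.256 without any 1 control or without Tex15-/- library 3. The 11 germ cell markers summed to 3950 to 4229 CPM in all 6 libraries, with Tdrd9, a piRNA pathway helicase, the highest at 688 to 843 CPM. Single markers, named after their values were seen, did differ. Dazl had 255 to 292 CPM in the controls and 238, 204 and 236 CPM in Tex15-/- libraries 1, 2 and 3. Dppa3 had 43.3 to 61.6 CPM against 44.9, 18.4 and 39.8 CPM. Above every control were 1, 2 and 3 of the 11 markers in libraries 1, 2 and 3, beside 23.1%, 35.3% and 30.3% of all tested genes. Below every control were Ddx4, Dazl and Mael in library 1, and Dazl, Piwil4 and Dppa3 in library 3. In library 2 this held for Dazl, Piwil4, Pou5f1, Nanos2, Dnd1 and Dppa3. The level sum thus hides lower single markers, most of them in library 2. RNA of other testis cells was not evenly spread. The 41 markers of Sertoli, foetal Leydig, interstitial, endothelial and blood cells summed to 225 to 284 CPM in the controls, 229 CPM in Tex15-/- library 1, 2999 CPM in library 2 and 933 CPM in library 3. Of these markers 5, 39 and 34 lay above every control in libraries 1, 2 and 3, where 23.1%, 35.3% and 30.3% of all tested genes did. Col3a1, the collagen that led the interstitial list, reached 599.8 and 126 CPM in libraries 2 and 3, against 10.02 to 17.4 CPM in the other libraries. The list leaders of foetal Leydig, Sertoli and blood cells were also higher in libraries 2 and 3 than in any control (Cyp17a1 at 243 and 80.1 CPM, Clu at 98.5 and 91.5 CPM, Csf1r at 16.9 and 20.2 CPM). The endothelial leader Cdh5 was higher in library 2 alone, at 88.7 CPM. Insl3, a defining product of foetal Leydig cells, had no read in the controls or in library 1. The other foetal Leydig markers all had reads there, and the list summed to 20.3 to 62.4 CPM in the controls and 36.5 CPM in library 1. Libraries 2 and 3 are therefore named beside each result that rests on them. In such bulk samples, fewer cells of a type and less RNA per cell cannot be told apart.

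In control gonocytes the imprinted genes spanned from abundant to barely detected, and 28 of 36 reached 1 CPM per kb of exon. The median was 1.96 CPM per kb over all 36, and 3.48 over the 30 that passed the count filter, beside 3.38 for all tested genes. Per length, Grb10, an adaptor that dampens insulin and IGF signalling, was the highest at 32.4 ± 5.25 CPM per kb (SD, n = 3). Next came Copg2, a coatomer subunit, at 22.2 ± 1.09, and Igf2r, the receptor that clears IGF2, at 19.4 ± 0.90 CPM per kb. Zrsr1, a retrogene related to splicing factors, was at 19.1 ± 0.84 and the retrotransposon-derived Peg10 at 17.98 ± 1.99 CPM per kb. The non-coding H19 was the last above 10 CPM per kb, at 10.9 ± 1.31. Only 6 of the 35 neighbouring pairs in the order of levels had control values that did not overlap. These were Grb10 over Copg2, Copg2 over Igf2r, Peg10 over H19, Rian over Peg3, Ube3a over Mirg and Airn over Magel2. The order of the other neighbours was within the spread of the libraries.

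Clusters were not expressed as units. H19 exceeded its neighbour Igf2, the foetal growth factor, which was at 0.264 ± 0.022 CPM per kb. Igf2r likewise exceeded Airn, the non-coding RNA that crosses it, at 0.192 ± 0.056 CPM per kb. In the Dlk1-Meg3 cluster the snoRNA host Rian led with 9.50 ± 1.33 CPM per kb and Dlk1, a Notch ligand homologue, followed with 6.36 ± 1.67. Mirg, Rtl1 and Meg3 of the same cluster lay between 1.71 and 2.94 CPM per kb. In the Kcnq1ot1 cluster the growth-restraining genes Phlda2 and Cdkn1c stood at 5.36 ± 2.92 and 4.95 ± 2.11 CPM per kb. The cluster's regulatory RNA Kcnq1ot1 stood at 0.735 ± 0.10 and the potassium channel gene Kcnq1 at 0.497 ± 0.12 CPM per kb. Magel2, a regulator of endosomal protein sorting, was the lowest member, with 4 reads in the 3 controls together.

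**Figure D1:**
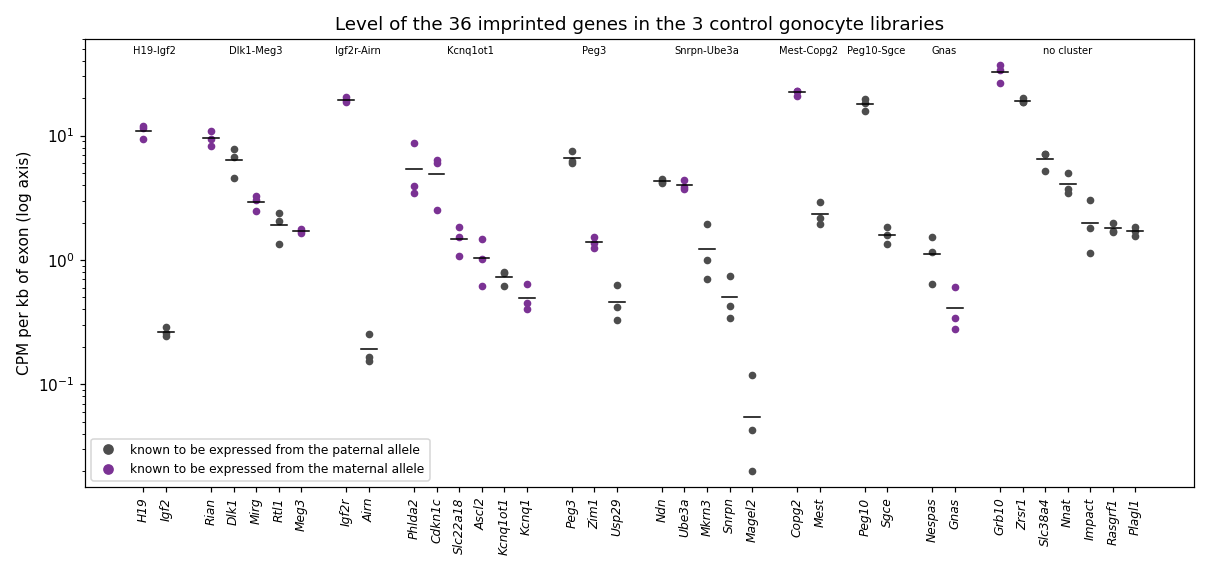
Level of each imprinted gene in the 3 control libraries, in CPM per kb of merged exons on a log axis, with a dot per library and a bar at the mean. Genes are grouped by cluster, with the usual expressed allele in colour, and the Magel2 library with 0 reads is drawn at the lower end of the dots (0.02). Grb10, Copg2, Igf2r, Zrsr1 and Peg10 form the top, while Igf2, Airn and Magel2 lie lowest.

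Some levels are limited by shared exons. Of 456 genes whose exons lie wholly under exons of the other strand, 1 (0.219%) had any read, so the counts behave as if made without regard to strand and reads over shared exons went to neither gene. For 27 members at least 90% of the exon bases were their own. The most affected was Igf2, with 64.5% of its bases shared and 56.3% to 96.98% in each coding transcript, mostly with the readthrough gene Gm49394. Gnas, which encodes the stimulatory G protein alpha subunit, shared 21.97% of its bases with Gm20721 and the antisense Nespas, and up to 94.8% in 1 of its 16 coding transcripts. Nespas (38.5%), Snrpn (34.1%), Cdkn1c (30.7%), Ube3a (27.3%), Mest (23.1%), Copg2 (17.8%) and Usp29 (14.8%) were the others. Transcript by transcript the share was higher for some of them, at 31.6% to 96.7% in the 4 coding transcripts of Usp29, 30.98% to 60.6% in the 4 of Cdkn1c and 21.9% to 100% in the 11 of Ube3a, of which 1 was wholly shared. Airn lies across introns and upstream of Igf2r, and Kcnq1ot1 lies within Kcnq1. Intron reads of one and exon reads of the other cannot be told apart there. Rtl1 lies opposite to the other RNAs of its domain, and any unannotated RNA of the other strand would be counted as Rtl1.

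Between the genotypes, none of the 30 tested imprinted genes was called at an adjusted p under 0.05 (edgeR quasi-likelihood test, adjusted over all 16311 genes). The adjusted p-values ran from 0.460 to 0.994. The same test called 3 of all genes (0.0184%), namely Tex15 and Gm10800 lower and Rspry1 higher. At an unadjusted p under 0.05, 8 members passed, where 9.2% of all genes did. H19, Peg3, Mest, Dlk1, Plagl1 and Grb10 were the 6 with higher means (6.05% of all genes), and Usp29 and Kcnq1ot1 the 2 with lower means (3.15% of all genes). The median log2 fold change of the 30 members was 0.13, beside -0.00031 over all tested genes. By library the median log2 ratio of the members to the control mean was 0.013, 0.32 and -0.049 in Tex15-/- libraries 1, 2 and 3. The shift was thus in library 2, the library with the most somatic marker RNA. Members that are usually expressed from the maternal allele had a median log2 fold change of 0.35 (13 tested) and those from the paternal allele 0.079 (17 tested). Genes of the domains marked in the male germline had a median of 0.0072 (7 tested) and those marked in the oocyte 0.18 (23 tested).

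Read library by library, the members differed in which Tex15-/- libraries left the control range. None of the 36 lay above every control in all 3 Tex15-/- libraries, while 6.51% of all tested genes did. In all 3 libraries below every control were Usp29, Ube3a and the untested Kcnq1. These are 2 of the 30 tested members (6.67%), close to the 6.68% of all tested genes. A further 11 tested members (36.7%) were above every control in libraries 2 and 3 and not in library 1, where 13.1% of all tested genes showed this. Mirg, Kcnq1ot1 and Rasgrf1 (10% of the tested members) were below every control in libraries 2 and 3 and not in library 1. This was no more than the 14.1% of all tested genes. In library 1, which had somatic marker RNA at the control level, 21 of the 30 tested members stayed within the control range, as did 52.8% of all tested genes.

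**Figure D2:**
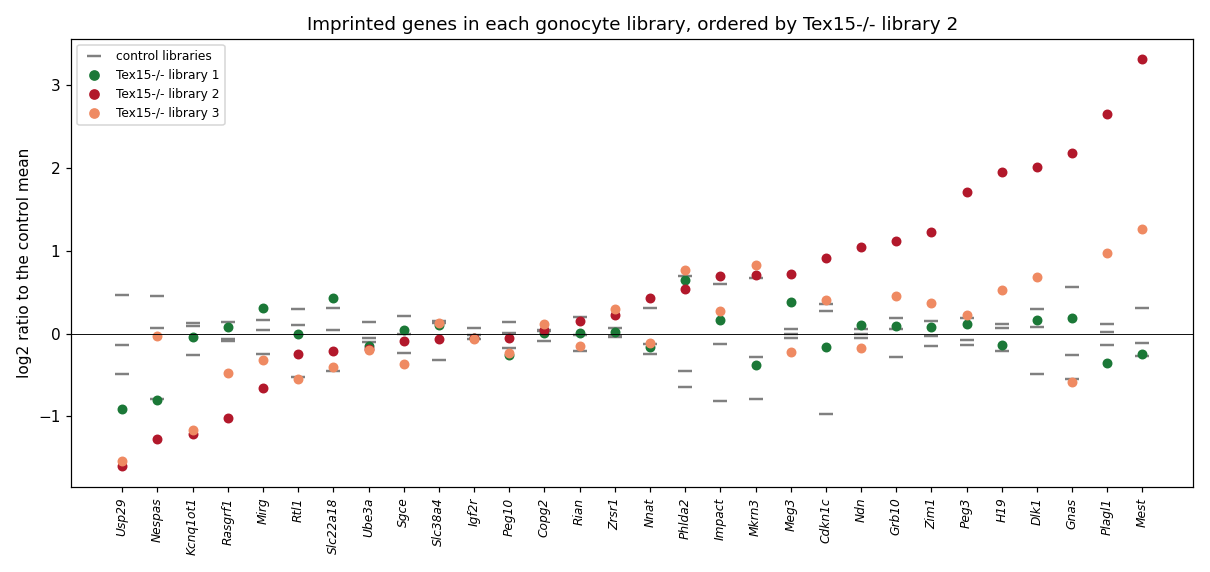
Log2 ratio of each of the 30 tested imprinted genes to its control mean, with grey dashes for the 3 control libraries and a dot for each Tex15-/- library, ordered by library 2. Mest, Plagl1, Gnas, Dlk1 and H19 stand highest in library 2, while library 1 stays near 0 for most genes and lies below the controls for Usp29.

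Mest, Plagl1, Dlk1, Igf2 and Peg3 are genes of foetal growth that are usually read from the paternal allele. Whether this held in gonocytes, whose inherited marks are erased, was not measured. Mest, a hydrolase-fold gene named for its expression in mesoderm (chr6:30723547-30748465, GRCm38), had 7.74, 8.62 and 11.5 CPM in the controls and 7.82, 92.5 and 22.3 CPM in Tex15-/- libraries 1, 2 and 3. Library 1 was within the controls and libraries 2 and 3 were 9.94-fold and 2.39-fold over the control mean. Its log2 fold change was 2.14 ± 0.68 (SE, edgeR quasi-likelihood test, adjusted p = 0.460). Plagl1, a zinc finger factor that acts on other imprinted genes (chr10:13060504-13131694), had 13.5, 14.4 and 12.1 CPM in the controls against 10.4, 84.1 and 26.1 CPM. Here library 1 was below the controls, and the log2 fold change was 1.596 ± 0.57 (edgeR adjusted p = 0.471).

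Dlk1 (chr12:109452823-109463336) followed the same order, with 44.2, 38.1 and 25.7 CPM in the controls and 40.3, 146 and 58.0 CPM in the Tex15-/- libraries (log2 fold change 1.18 ± 0.40 SE, edgeR adjusted p = 0.460). Peg3, a large zinc finger protein (chr7:6703892-6730431), had 79.8, 83.2 and 99.5 CPM against 94.6, 287 and 102 CPM, so that library 3 barely passed the highest control. Its log2 fold change was 0.88 ± 0.35 (SE, edgeR adjusted p = 0.493). Igf2 did not pass the count filter, with 8, 7 and 9 reads in the controls and 6, 35 and 14 reads in the Tex15-/- libraries, again in the order of libraries 2, 3 and 1. Zim1, the zinc finger gene next to Peg3 that is usually read from the maternal allele, lay less far above the controls. It had 10.1, 11.03 and 12.5 CPM against 11.8, 26.2 and 14.5 CPM (log2 fold change 0.64 ± 0.31 SE, edgeR adjusted p = 0.561).

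Genes that restrain growth and are usually read from the maternal allele were not all alike. H19 (chr7:142575529-142578143) had 29.3, 23.3 and 28.2 CPM in the controls and 24.4, 104 and 38.8 CPM in the Tex15-/- libraries (log2 fold change 1.05 ± 0.42 SE, edgeR adjusted p = 0.492). Grb10 (chr11:11930508-12038683) had 335, 306 and 242 CPM against 314, 640.1 and 402 CPM (log2 fold change 0.62 ± 0.22 SE, edgeR adjusted p = 0.471). In both genes library 1 lay among the controls and library 2 was the highest. Igf2r, by contrast, had 189, 173 and 179 CPM against 174, 174 and 172 CPM, with its Tex15-/- libraries at the lower end of the controls. Cdkn1c, a cyclin-dependent kinase inhibitor, had 12.9, 12.2 and 5.13 CPM against 9.02, 19.1 and 13.3 CPM, and Phlda2, a placental growth suppressor, 9.77, 4.41 and 3.85 CPM against 9.42, 8.72 and 10.3 CPM. For Phlda2 and Cdkn1c the highest control was 2.54-fold and 2.51-fold over the lowest, as the dots in the plot of control levels show.

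These values were set beside the somatic marker RNA. Of the 11 tested members above every control in libraries 2 and 3 and not in library 1, each of H19, Peg3, Zim1, Mest, Dlk1, Cdkn1c, Plagl1 and Grb10 had library 2 above library 3, which is also the order of the summed somatic markers. These 8 of the 30 tested members stand beside 9.95% of all tested genes with that pattern. In the other 3, Copg2, Mkrn3 and Zrsr1, library 3 was the highest. Not every somatic list had the order of the sum. Interstitial markers made its largest part, at 1905 and 440 CPM in libraries 2 and 3. Sertoli markers summed to 233 and 178 CPM, and foetal Leydig markers to 565 and 177 CPM. Endothelial markers summed to 257 and 82.6 CPM, against up to 81.3 CPM in the controls. Blood markers had the reverse order, at 39.8 and 55.2 CPM. Of all tested genes, 2134 were above every control in libraries 2 and 3 and not in library 1. Library 2 was above library 3 in 1623 of these, so that order was common among all genes so chosen. Library 1 is last by the choice of these genes. The part of other cells' RNA in the levels of the members was not tested. Without Tex15-/- library 1, 8 of 31 tested members passed an adjusted p under 0.05 (7.33% of all tested genes), namely H19, Peg3, Plagl1, Grb10, Dlk1 and Mest upwards and Usp29 and Kcnq1ot1 downwards. Without library 2 or without library 3, no member passed (0.0461% and 0% of all tested genes), with lowest edgeR adjusted p-values of 0.754 and 0.737. With library 1 alone against the 3 controls, again no member passed (0.151% of all tested genes), and the log2 fold changes of Mest, Plagl1 and H19 were -0.25, -0.35 and -0.14. That last fit assumes that the lone library varies as the controls do. Without the count filter, 7 of 36 members passed (1.66% of all tested genes), the same genes as without library 1 except Usp29. DESeq2 called no member (0.242% of all genes with an adjusted p, lowest adjusted p of members 0.299).

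**Figure D3:**
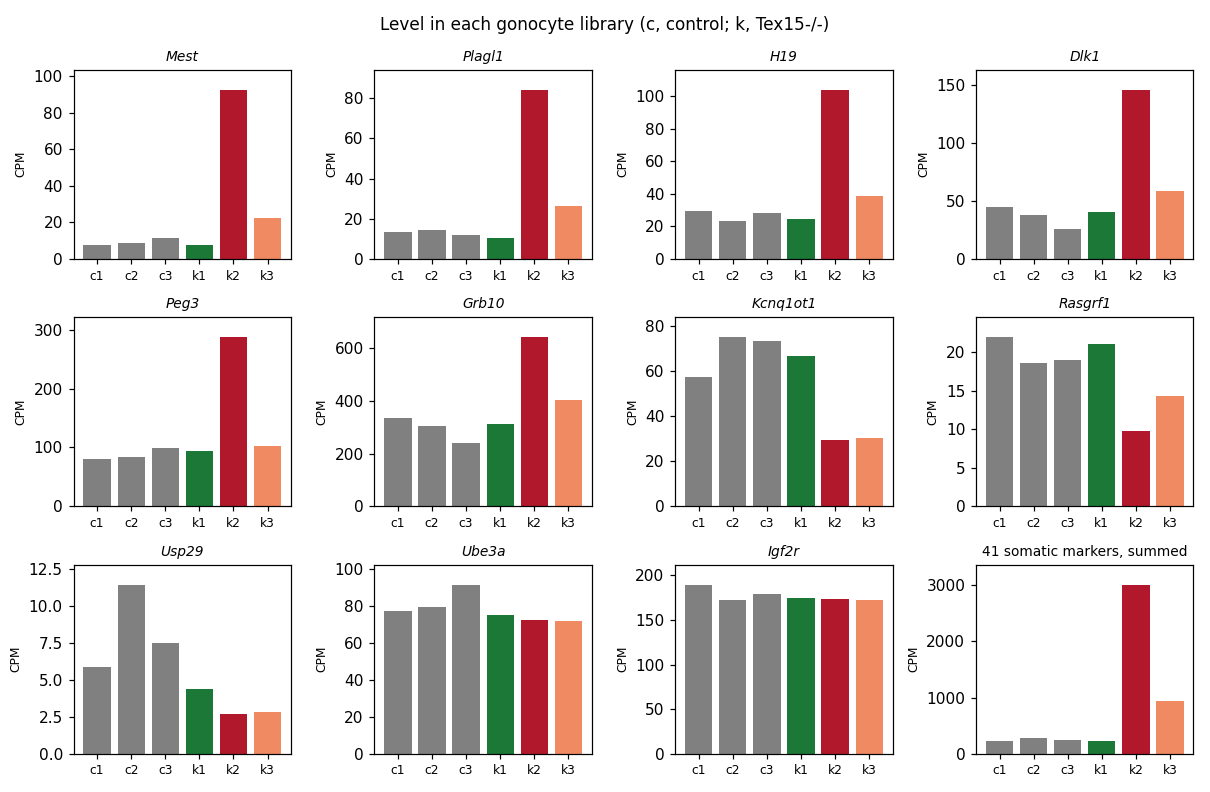
CPM in each gonocyte library for 11 imprinted genes and, in the last panel, the sum of the 41 somatic markers, with bars for controls 1 to 3 and Tex15-/- libraries 1 to 3 on linear axes from 0. The bars of Mest, Plagl1, H19, Dlk1, Peg3 and Grb10 peak in Tex15-/- library 2 as the markers do, Kcnq1ot1 and Rasgrf1 dip in libraries 2 and 3, and Usp29 is low in all 3.

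Usp29, a ubiquitin-specific protease gene that starts next to Peg3 and runs the other way (chr7:6730578-6967219), lay below the controls in all 3 Tex15-/- libraries. It had 32, 57 and 41 reads in the controls and 22, 15 and 15 reads in the Tex15-/- libraries, or 5.90, 11.4 and 7.51 CPM against 4.41, 2.73 and 2.85 CPM. Its log2 fold change was -1.31 ± 0.39 (SE, edgeR quasi-likelihood test, adjusted p = 0.460), and library 1, without somatic marker RNA above the controls, was also below them. The gene passed an adjusted p under 0.05 only without Tex15-/- library 1 (adjusted p = 0.0464). Ube3a, the ubiquitin ligase of the Snrpn domain (chr7:59228750-59311536), was also below in all 3, though by little. It had 77.4, 79.6 and 91.4 CPM in the controls and 74.9, 72.7 and 72.1 CPM in the Tex15-/- libraries (log2 fold change -0.18 ± 0.11 SE, edgeR adjusted p = 0.631). Kcnq1 showed 9, 13 and 10 reads against 4, 2 and 6 reads, and did not pass the count filter.

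Kcnq1ot1, the long RNA that silences its cluster on the paternal chromosome (chr7:143203458-143296549), had 57.3, 74.8 and 73.1 CPM in the controls and 66.7, 29.4 and 30.4 CPM in the Tex15-/- libraries. Library 1 was within the controls and libraries 2 and 3 were close to each other, with summed somatic markers of 2999 and 933 CPM. The part of other cells' RNA in these levels was not tested. The log2 fold change was -0.70 ± 0.28 (SE, edgeR adjusted p = 0.491). Rasgrf1, a Ras guanine nucleotide exchange factor and the single gene among the domains marked in the male germline (chr9:89909908-90026977), had 21.9, 18.6 and 19.1 CPM against 21.04, 9.81 and 14.3 CPM. Again library 1 lay among the controls, and the log2 fold change was -0.41 ± 0.27 (SE, edgeR adjusted p = 0.646).

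The other genes of the Dlk1-Meg3 domain differed in their order of libraries. Rian had 150.2, 199 and 171 CPM in the controls and 174, 192 and 156 CPM in the Tex15-/- libraries, within the controls throughout. Meg3 had 29.9, 32.1 and 30.97 CPM against 40.5, 51.1 and 26.5 CPM, so that libraries 1 and 2 lay above and library 3 below the controls. Mirg, the microRNA host of the domain, had 22.1, 24.1 and 18.1 CPM against 26.7, 13.6 and 17.1 CPM. For Rtl1, a retrotransposon-derived gene opposite to these RNAs, the values were 8.48, 15.0 and 13.2 CPM against 12.2, 10.4 and 8.37 CPM. They may include RNA of the other strand. In none of these genes did all 3 Tex15-/- libraries lie outside the control range on the same side, although for Rtl1 all 3 were below the control mean.

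In the Snrpn domain Ndn, a MAGE family gene of neurons, had 15.3, 16.4 and 15.8 CPM in the controls against 17.0, 32.7 and 14.1 CPM, with library 2 well above the controls, library 1 just above them and library 3 below. Mkrn3, a ubiquitin ligase gene, had 4.98, 1.805 and 2.57 CPM against 2.40, 5.09 and 5.52 CPM, with libraries 2 and 3 just over the highest control. Snrpn, a splicing ribonucleoprotein gene, had 4, 8 and 5 reads against 6, 2 and 4 reads, and Magel2 3, 1 and 0 against 1, 1 and 3 reads. Neither passed the count filter. Gnas had 3.13, 3.81 and 6.78 CPM against 5.21, 20.7 and 3.04 CPM, high in library 2 and below every control in library 3, and its antisense Nespas 2.03, 4.81 and 3.67 CPM against 2.004, 1.45 and 3.43 CPM.

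Copg2, Peg10, Sgce and Zrsr1 varied little across the libraries. Copg2 had 107, 117 and 117 CPM in the controls and 115, 117 and 123.3 CPM in the Tex15-/- libraries, although Mest, with which it shares exon bases, was several-fold higher in library 2. Peg10 had 133, 121 and 106 CPM against 100.4, 116 and 102 CPM. Its neighbour Sgce, a sarcoglycan gene, had 14.4, 16.8 and 19.6 CPM against 17.4, 15.99 and 13.1 CPM. Zrsr1 had 89.97, 83.6 and 83.2 CPM against 86.6, 99.7 and 105 CPM (log2 fold change 0.18 ± 0.11 SE, edgeR adjusted p = 0.621). In these 4 genes no Tex15-/- library differed from the control mean by more than 1.29-fold. The amino acid transporter gene Slc38a4 ranged from 21.99 to 30.5 CPM in the controls and from 26.3 to 30.1 CPM in the Tex15-/- libraries. Nnat, a small membrane proteolipid gene, and Impact, a regulator of translation, had Tex15-/- levels that were within the controls except in library 2, at 9.99 and 16.53 CPM against highest controls of 9.22 and 15.5 CPM. Of the least expressed members, Slc22a18, an organic ion transporter gene, had 10 to 17 reads per library, the placental factor Ascl2 0 to 13 reads and Airn 2 to 9 reads.

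Beyond the 36 members, a list of 35 other imprinted genes gave 31 tested genes with none called (median log2 fold change 0.049). Cd81, a tetraspanin gene of the Kcnq1ot1 cluster, had the largest log2 fold change on the list (1.70 ± 0.59 SE, edgeR adjusted p = 0.469). It had 4.79, 6.82 and 9.35 CPM in the controls against 6.41, 47.1 and 14.5 CPM, again in the order of the summed somatic markers. Slc22a3, a transporter gene of the Igf2r cluster, was above the controls in all 3 Tex15-/- libraries, with 0.922, 0.602 and 1.47 CPM against 2.81, 2.36 and 3.996 CPM (log2 fold change 1.58 ± 0.57 SE, edgeR adjusted p = 0.471). Both genes, and those named next, were picked out after their values were seen. Of the 31 tested genes on the list, 3 had all 3 Tex15-/- libraries above every control (Slc22a3, Klf14 and Nap1l4) and 3 had them all below (Zdbf2, Commd1 and Sfmbt2), beside 6.51% and 6.68% of all tested genes. Of 15 genes that set, keep or erase imprints, all were tested and none was called (median 0.12). Of these, 4 had all 3 Tex15-/- libraries above every control (6.51% of all tested genes did) and none had all 3 below. They are named here after their values were seen. Trim28, a corepressor that guards imprints, had 283, 223 and 262 CPM in the controls against 311, 302 and 316 CPM in the Tex15-/- libraries (log2 fold change 0.28 ± 0.10 SE, edgeR adjusted p = 0.477). Tet2, which oxidises methylcytosine, had 55.5, 67.2 and 65.4 CPM against 83.4, 78.7 and 76.1 CPM (log2 fold change 0.34 ± 0.12 SE, edgeR adjusted p = 0.471). Library 1 lay between libraries 2 and 3 in Trim28 and above them in Tet2. Zfp57, a zinc finger protein that guards imprints after fertilisation, had 1.84, 3.01 and 2.75 CPM against 3.21, 15.4 and 5.14 CPM. Its log2 fold change was 1.65 ± 0.57 (SE, edgeR adjusted p = 0.462), and its Tex15-/- libraries followed the order of the summed somatic markers. Uhrf1, which brings maintenance methylation to replicating DNA, had 23.2, 17.4 and 20.2 CPM against 23.2, 37.2 and 23.8 CPM, with library 1 level with the highest control to 3 digits. For the de novo methyltransferase gene Dnmt3a and its cofactor gene Dnmt3l, also named later, the genotypes overlapped, at 575 to 611 against 591 to 660.1 CPM and at 237 to 279 against 244 to 321 CPM.

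Small RNAs of the testis were then examined over the imprinted genes, since a piRNA target lies before Rasgrf1. Reads of 25-30 nt, the size of piRNAs, were counted where they matched GRCm38.p6 exactly at 1 place only, in a window from 100 kb before each gene's start to its end. Values are reads scaled to a total of 1000000 reads of 25-30 nt per library (RPM), and the libraries held 2766977 to 30488444 such reads. The libraries numbered 1 to 3 here are testis samples and are not tied by the labels to the gonocyte libraries of the same number. Their genotype follows the sample titles and the names inside the deposited tables. The run names carry the letter T for the controls and C for Tex15-/-, the reverse of the letters in the gonocyte file names, so every genotype direction in the small RNA below rests on the titles and those names. Were the genotypes exchanged, each of these directions would be turned. Tex15-/- testis library 2 stood apart, with 24.7% of its 18-32 nt reads at 25-30 nt (95% Wilson interval 24.7% to 24.8%) against 32.3% to 36.7% in the other libraries.

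The Rasgrf1 window (chr9:89809908-90026977) held 22.6, 23.8 and 29.7 RPM in the controls and 17.1, 6.14 and 16.46 in Tex15-/- libraries 1, 2 and 3. All Tex15-/- values lay below the controls, and the means were 25.4 and 13.2 RPM. The difference was -12.1 (exact permutation test, both sides, p = 0.10, and 3 libraries against 3 cannot give less), and -8.58 without the outlying Tex15-/- library 2. The reads were not spread evenly. A stretch of 6000 bases, 26 to 32 kb before the gene (chr9:89877908-89883907, 2.76% of the window), held 869 of the reads pooled over the 6 libraries, against 416 in all the rest. This stretch was picked out after its values were seen. It overlaps no annotated gene and lies between 4930524O08Rik, 13880 bases away, and Rasgrf1, 26001 bases away.

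Within the stretch, RPM were 15.4, 16.1 and 18.98 in the controls and 12.98, 2.89 and 11.7 in the Tex15-/- libraries. The low value of library 2 rests on 8 reads. Of the 869 reads, 740 ran opposite to Rasgrf1, 614 began with T and 284 were annotated to RMER4B by the authors. A first T (U in the RNA) is common in primary piRNAs. The sequences with the most reads pooled over the libraries sat 28301 to 30351 bases before the gene and are shown here in that order, which the deepest library, control 2, weighs on most. Each is written 5′ to 3′ with its first base in capitals.

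Read 1, 26 nt, RMER4B, chr9:89879605-89879630, minus strand: Cagaattccatatctaaactatcttt
Read 2, 27 nt, no annotation, chr9:89881581-89881607, minus strand: Tagcagctgaggcagcagcagagactg
Read 4, 25 nt, no annotation, chr9:89879708-89879732, minus strand: Tggatgtgggagcagcagcgcggcc
Read 5, 30 nt, RMER4B, chr9:89879528-89879557, minus strand: Cagaattccatatctaaactatcttcagct
Read 6, 27 nt, RMER4B, chr9:89879585-89879611, minus strand: Tatctttagcggcagcagcacagctct

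Read 1 was found 6, 31 and 6 times in the controls and 6, 0 and 7 times in the Tex15-/- libraries, and read 2 1, 24 and 1 times against 5, 0 and 2 times. Control library 2 was sequenced deepest, and 1 read was worth 0.0328 RPM there and 0.361 RPM in Tex15-/- library 2. Reads 1 and 5 share their first 25 bases, since this sequence occurs at 2 places of the locus that lie 73 bases apart. Read 3 is a longer form of read 1. The reference around both copies, 176 bases on the minus strand (chr9:89879515-89879690), is given next, with capitals where at least 20 reads of the 6 libraries covered a base.

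Rasgrf1 upstream, minus strand: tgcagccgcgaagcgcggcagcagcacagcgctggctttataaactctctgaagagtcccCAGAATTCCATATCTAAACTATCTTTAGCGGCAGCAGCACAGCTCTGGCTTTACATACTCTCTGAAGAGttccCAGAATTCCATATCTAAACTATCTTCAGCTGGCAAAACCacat

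Covered bases made up 108 of the 176, and 198 reads of 31 sequences lay wholly inside. Reads that match both copies equally were left out by the rule of 1 place, and so were reads that differ from the reference.

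**Figure D4:**
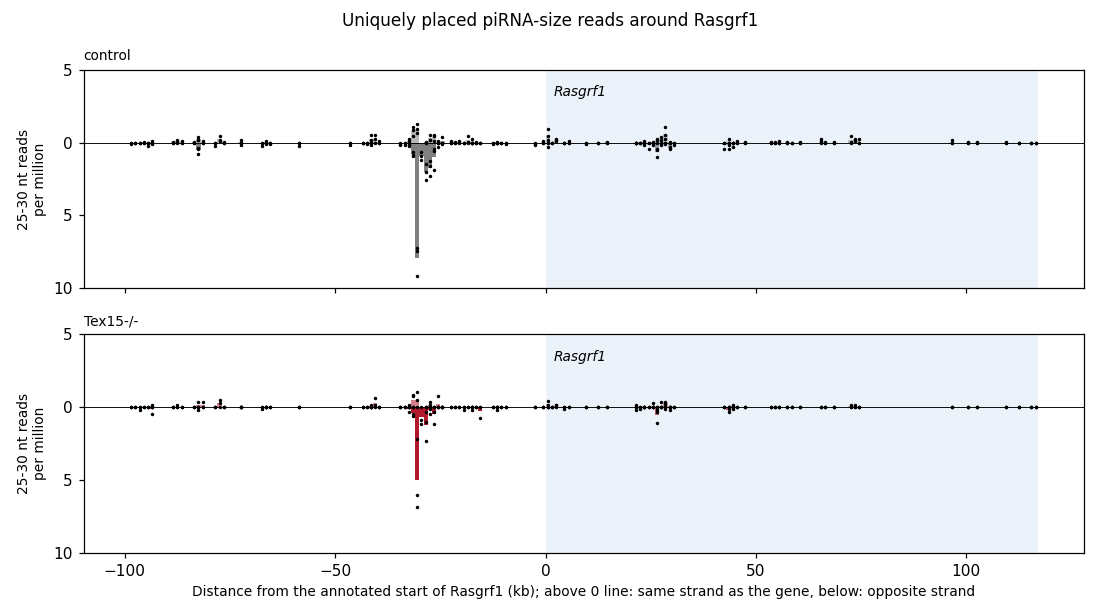
25-30 nt RPM in bins of 1 kb around Rasgrf1 in control (top) and Tex15-/- (bottom) testes, as the mean of 3 libraries (bars) with each library as a dot. Reads on the strand of the gene are drawn upwards and those on the other strand downwards, the gene body is shaded, and in both genotypes the highest bin lies 30 to 31 kb before the start on the opposite strand.

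Lower piRNA-size counts were not particular to Rasgrf1. Of the 36 windows, 12 had all 3 Tex15-/- libraries below every control, in 7 of the 16 loci, and 1 had them all above. Windows of the same cluster overlap and share reads, and windows of other genes were not counted. The median ratio of the Tex15-/- to the control mean was 0.828 over the windows, and 5 windows had a lower ratio than Rasgrf1 (0.522). These counts depend on single libraries. Without the outlying Tex15-/- library 2, 24 windows had both remaining Tex15-/- libraries below every control, the ratio of Rasgrf1 was 0.662 and 15 windows had a lower one. With the genotypes exchanged, as the run names leave possible, the ratio of Rasgrf1 over all libraries would be 1.92 with 5 windows higher. Without Tex15-/- library 3, 2 windows had a lower ratio than Rasgrf1, and without Tex15-/- library 1, 4 windows had the remaining libraries above every control. Igf2r showed 44.9, 45.6 and 59.8 RPM in the controls and 23.0, 23.5 and 20.8 in the Tex15-/- libraries, a ratio of 0.447 with Tex15-/- libraries that lay close together. The ratio was 0.376 for Slc38a4, 0.426 for Dlk1 and 0.446 for Airn, whose window overlaps that of Igf2r. Without Tex15-/- library 2 these were 0.455, 0.481 and 0.434, so that their order changed, and Igf2r was at 0.436. With the genotypes exchanged and all libraries kept, they would be 2.66, 2.35 and 2.24, and Igf2r would be at 2.24. The window with all Tex15-/- libraries above was that of Mirg, at 7440.4 to 9177 RPM in the controls and 10169 to 19473 in the Tex15-/- libraries. It holds a microRNA cluster. Without the reads that the authors annotated as microRNA, the Tex15-/- libraries still lay above, at 4222 to 8128 against 2989 to 3705 RPM, and the ratio of the means was 1.601 in place of 1.55. Only 0.0023% of the reads in the window lay opposite to Mirg. Fragments of microRNAs or their precursors without such an annotation were not removed, so the remaining reads need not be piRNAs. With the genotypes exchanged, the Tex15-/- libraries would lie below here.

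**Figure D5:**
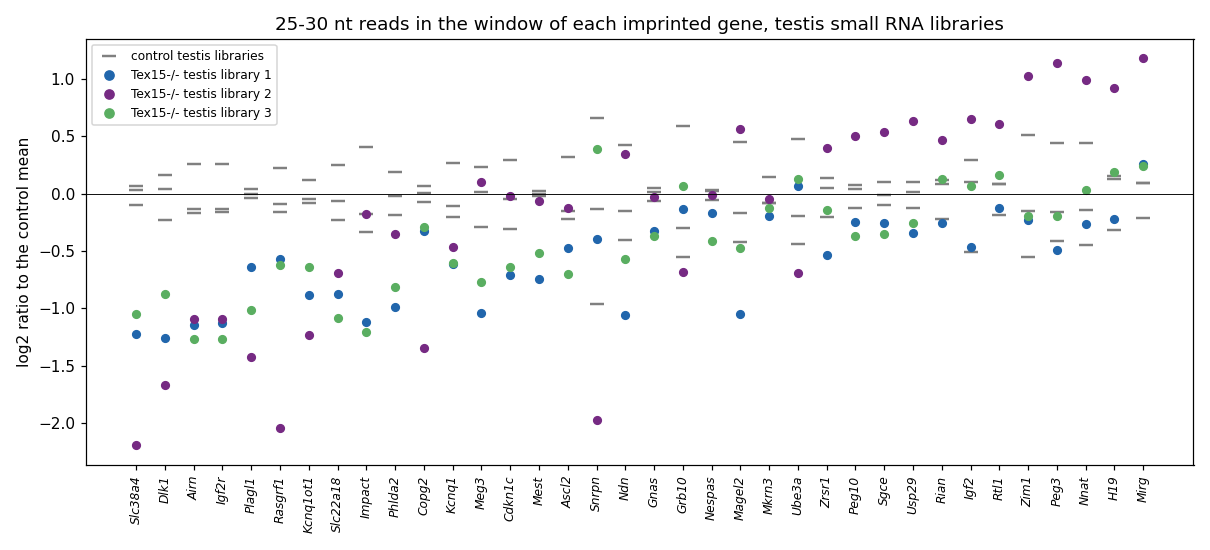
Log2 ratio of 25-30 nt RPM to the control mean in the window of each of the 36 genes, with grey dashes for the control testis libraries and dots for the Tex15-/- testis libraries. At the left, from Slc38a4 to Rasgrf1, all Tex15-/- dots lie below the dashes, and library 2 is often the lowest there and the highest at the right.

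Among the protein-coding members, piRNA-size reads were densest in the window of Usp29. Its window held 5573, 5257 and 4746 RPM in the controls and 4095, 8039 and 4360 in the Tex15-/- libraries, so that the groups overlapped. Of the reads in the window, 95.4% fell 81 to 100 kb before the start (chr7:6630578-6649577), all on the strand opposite to Usp29. The stretch begins 2171 bases beyond the end of Zim2, a zinc finger gene of the Peg3 domain transcribed on that same strand, and it reaches the edge of the window, so its full extent is not given here. Of the 284597 reads pooled over the libraries, 241457 began with T. By the deposited annotation 176607 were matched to L1_Mur1, a family of LINE-1 elements. The most abundant sequences of this stretch are shown, with the first base in capitals.

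Peg3 domain read 1, 27 nt, chr7:6641424-6641450, minus strand: Tgttgatcggcgttcttggttatgaca
Peg3 domain read 2, 26 nt, chr7:6642008-6642033, minus strand: Taggatctatgtttggacacaggtgt
Peg3 domain read 3, 29 nt, chr7:6640452-6640480, minus strand: Tagtttctgcttccatgatctgtccattt

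The first was found 854, 4791 and 928 times in the controls and 1172, 581 and 1076 times in the Tex15-/- libraries, or at 177, 157 and 126 RPM against 195, 210.0 and 159.5 RPM. Over the whole stretch the values were 5310, 5054 and 4538 RPM against 3890, 7312 and 4130 RPM, with the Tex15-/- libraries on both sides of the controls. Whether the cluster is linked to the level of Usp29 in gonocytes was not tested.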

How the data were processed

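Gonocyte reads were aligned by the authors with HISAT2, and the deposited values are unnormalised counts per Ensembl gene made with HTSeq 0.11.1. For small RNA they deposited the count of reads with each trimmed, collapsed sequence (cutadapt 1.8.1, Bowtie 1.2.1.1) with its annotation. Reads assigned to no gene (61.3% to 67.3%) were left out. Identifiers were matched to GENCODE M21 (54809 of 54838), from which exon lengths and GRCm38 coordinates come. Genotypes were compared with edgeR 4.0.16 under R 4.3.3 (TMM, filterByExpr with a minimum count of 10 and a total of 15, quasi-likelihood test with legacy setting, Benjamini-Hochberg adjustment over all genes), and DESeq2 1.42.0 was an alternative. Fitted on the 6 gonocyte libraries only, a gene was called at an adjusted p under 0.05. The SE beside each edgeR log2 fold change was derived from the test, not fitted. It is the absolute log2 fold change divided by the square root of the F statistic. The scripts were tested on simulated counts with log2 changes of 1 or 2, 100 genes each. At a coefficient of variation of 0.4, the edgeR fit recovered 2 and 52 of 100, with 2 false calls. At 0.2 it recovered 60 and 100 of 100, with 16 false calls. Changes of 2-fold can thus be missed. Small RNA sequences were searched exactly in GRCm38.p6 with Python 3.11.15 and compared by exact permutation tests (scipy 1.17.1). Same-numbered control and Tex15-/- libraries did not deviate together (correlations -0.143, -0.043 and -0.0075), so the numbers name libraries only. Named were all members, Tex15, listed genes with an adjusted p under 0.05 and the most abundant gene of each marker list; Insl3 and the other genes said to be were picked out later. The members and lists were chosen with earlier results of these data known. Reads on an RMER4B consensus and the P20 libraries were not analysed here. Intervals and counts cover counting error only.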

Additional observations from a re-analysis of the deposited data

How the results depend on the processing

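Depth limits 6 of the 36 members, which did not pass the count filter. Over all genes, 3 calls became 706 without the count filter, 43 with the DESeq2 Wald test, 0 at an adjusted p under 0.01, and 0 to 1284 with 1 library left out. Members called were 0, but 7 without the filter and 0 to 8 with 1 library left out, the 8 being without Tex15-/- library 1. Other imprinted genes called became 1 without the filter (Cd81) and 0 to 1 with 1 library left out, and imprint regulators 2 without the filter (Zfp57, Dppa3) and 0 to 2 with 1 library left out (Zfp57 and Kdm1b). Members with every Tex15-/- library above every control were 0 to 11 with 1 library left out, and those with every library below were 3 to 5 in place of 2. Chosen after seeing the data were DESeq2 without Tex15-/- library 2 (10 genes, no member) and the fit without libraries 2 and 3 (29 genes, no member), where the log2 fold changes of H19 (-0.14), Mest (-0.25), Plagl1 (-0.35) and Rasgrf1 (0.082) turned. The cause was not tested. With the replicate block, all genes called were 6 and no member passed, and the pairing of numbers had no support in the labels. The median log2 fold change of members stayed between 0.009 and 0.27. Tex15 stayed below in every alternative, from -2.74 to -1.78, but missed the threshold without any 1 control or without Tex15-/- library 3 (adjusted p up to 0.256). The Rasgrf1 window stayed lower in every alternative, with differences of -14.1 to -8.58 RPM when 1 library was left out. Leaving out 1 library in the windows of all members was also chosen after seeing the data. A count on the RMER4B consensus was not run, since the repeat tables used here have no row of that name.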
